A study of Oncorhynchus mykiss with 18 samples.

Results

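H3K4me3 and H3K36me3 were compared within the testis of 1 rainbow trout, TAC-3, which carries the Prdm9 2/6 genotype. The members are the peaks of the H3K4me3 list and of the H3K36me3 list of this fish, 50548 and 40535 regions, which together are 91083 of the 409541 regions in the 7 lists of the series. An H3K4me3 peak and an H3K36me3 peak were said to meet when 1 bp or more of the genome lay in both. The share of each list that met the other was computed in both directions, by peak width, by peak score, by chromosome and along chromosomes, together with the distance from each peak to the nearest peak of the other mark.

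The series maps meiotic DNA double-strand break (DSB) hotspots and both histone marks in testes of rainbow trout (Oncorhynchus mykiss), in order to relate hotspots to PRDM9. TAC-3 and TAC-1 (Prdm9 1/5) are fish of the INRA-AUT strain with testes at maturation stage III, and each had 2 replicates per mark, precipitated with an Abcam antibody to H3K4me3 and a Diagenode antibody to H3K36me3. RT-52 (Prdm9 1/2) has a list of hotspots, mapped by the DMC1-SSDS assay, and no list of either mark among the files used here. Its testis was at maturation stage IV. The paper states that differences in hotspot number between fish may reflect the developmental stage of the testis. Each genotype is represented by 1 fish, so that genotype and individual cannot be told apart. Testis tissue was used, so that a mark present in few cells and a weak mark in all cells cannot be told apart either. Each list is 1 set of peaks made from both replicates, with no value per replicate, and no test over samples was possible.

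H3K4me3 is the trimethylation of lysine 4 of histone H3, which is typical of active promoters. H3K36me3 is laid down in the bodies of transcribed genes, mainly by SETD2, which travels with elongating RNA polymerase II, so that both marks usually lie at different places of the same gene. PRDM9 is a methyltransferase that is expressed in meiotic germ cells and binds DNA through its zinc fingers, and in mammals it places both marks on the nucleosomes around its binding sites, where DSBs then form. DMC1 is the recombinase that coats the single-stranded ends of these breaks.

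The H3K4me3 peaks of TAC-3 had a median width of 757 bp (quartiles 300 and 1244 bp) and covered 44.1 Mb, or 1.98% of the chromosome length. The H3K36me3 peaks were fewer and wider, with a median of 976 bp (quartiles 312 and 2276 bp), and covered 70.4 Mb (3.15%). On the 32 chromosomes there were 22.1 H3K4me3 peaks and 17.8 H3K36me3 peaks per Mb. Each peak carries a score, averaged over the MACS2 calls from which it was merged. Peaks are called high or low by this score. It was used to rank peaks within a list, and its medians are also given by list and by fish. Its median was 192 for H3K4me3 (range 50 to 31583) and 136 for H3K36me3 (range 50 to 6896). Wider peaks had higher scores in both lists, with a Spearman's rho across peaks of 0.55 for H3K4me3 and 0.52 for H3K36me3. The lists give no read counts, so that the depth behind a peak is unknown.

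In TAC-3, 4366 of the 50548 H3K4me3 peaks met an H3K36me3 peak, a share of 8.64% (95% Wilson interval 8.40% to 8.89%). In the other direction, 4364 of the 40535 H3K36me3 peaks met an H3K4me3 peak, a share of 10.8% (10.5% to 11.1%). Intervals here and below cover counting error only. Over the 32 chromosomes, these shares were 8.78% ± 1.28 and 10.9% ± 1.37 (mean ± SD over chromosomes). Nearly every meeting was between 1 peak and 1 peak, since 4340 H3K4me3 peaks met a single H3K36me3 peak and 26 met 2. As a reference for how much room the lists take, the share of positions was computed at which a window of the same width on the same chromosome would touch a peak of the other list. This share of positions in reach averaged 4.72% for the H3K4me3 peaks and 5.70% for the H3K36me3 peaks, so that the shares found were 1.82 and 1.87 times as large. The value in reach takes no account of genes or of gaps in the assembly and is given as a description.

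The share of H3K4me3 peaks that met H3K36me3 was not ordered by score. It was 6.84% in score quartile 1 (scores 50 to 113), 9.56% in quartile 2, 14.4% in quartile 3 (scores 192 to 541) and 3.79% in quartile 4 (scores from 541). The interval of the highest quartile, 3.47% to 4.14%, lay below those of the other quartiles, and the interval of quartile 3, 13.8% to 15.0%, lay above them. This pattern was shared by the chromosomes: quartile 4 was below quartile 3 on 32 of 32, by 11.2 ± 2.89 percentage points (mean ± SD), and below quartile 1 on 30 of 32. Quartile 4 was also the only score quartile of either list below its share of positions in reach, which was 5.44%. In 10 equal parts of the list by score (deciles), a division chosen after the data were seen, the share was highest in decile 7, at 15.4%, and was 3.94% in decile 9 and 1.15% in decile 10, where 58 of 5055 peaks met H3K36me3.

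H3K36me3 peaks behaved otherwise, with a share that increased with score throughout. From the lowest to the highest score quartile, 6.87%, 9.43%, 12.3% and 14.5% of H3K36me3 peaks met an H3K4me3 peak. None of the 4 intervals overlapped another, and quartile 4 was above quartile 1 on 32 of 32 chromosomes, by 7.76 ± 3.18 percentage points. The plot by quartile shows the opposite course of the shares of both lists at the highest scores. Positions in reach of H3K36me3 peaks also grew with score, from 3.26% in quartile 1 to 8.56% in quartile 4. Relative to them, the H3K36me3 share decreased, from 2.09 times in quartile 1 to 1.90 in quartile 3 and 1.69 in quartile 4. For H3K4me3, this value was 2.92 in quartile 3 and 0.668 in quartile 4.

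**Figure D1:**
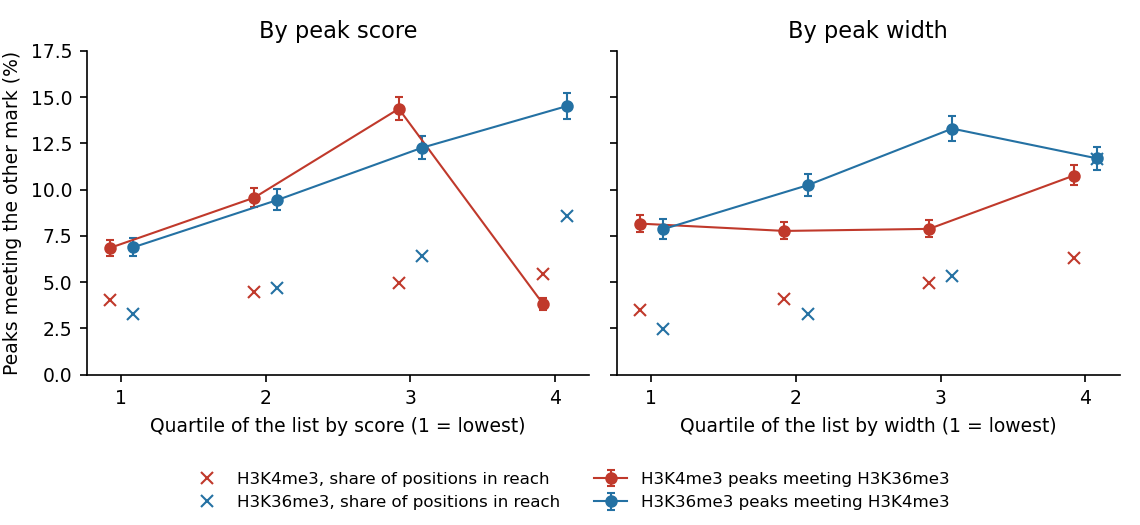
Share of TAC-3 peaks that meet a peak of the other mark (y axis, percent) by quartile of the list (x axis, 1 = lowest), by score on the left and by width on the right. Circles with bars are shares with 95% Wilson intervals, and crosses are the shares of positions in reach of the other list. H3K4me3 is at 14.4% in score quartile 3 and 3.79% in quartile 4, whereas H3K36me3 is highest in quartile 4, at 14.5%.

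The H3K4me3 shares varied less by width. They were 8.16%, 7.76% and 7.87% in width quartiles 1 to 3, whose intervals overlapped, and 10.8% (10.2% to 11.3%) in quartile 4, the peaks of 1244 bp and more. The widest quartile was above quartile 3 on 30 of 32 chromosomes. For H3K36me3, the shares by width were 7.85%, 10.2%, 13.3% and 11.7%. The share of positions in reach grew faster than these, from 2.44% in quartile 1 to 11.7% in quartile 4, so that the narrowest H3K36me3 peaks met H3K4me3 3.08 times as often as their positions in reach and the widest 0.998 times.

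When score and width quartiles were crossed, the largest share of H3K4me3 peaks meeting H3K36me3 was 21.1% (19.9% to 22.5%), in the 3744 peaks that were in the highest quartile by width and in quartile 3 by score. The smallest was 1.65% (1.34% to 2.04%), in the 5198 peaks of score quartile 4 and width quartile 3. Among the narrowest H3K4me3 peaks, those of up to 300 bp, the share was not lower at the highest scores. It was 10.5% in score quartile 3 and 11.9% in score quartile 4, where there were only 201 peaks and the interval was 8.16% to 17.2%. Within each width quartile of the H3K36me3 list, the share increased with every step in score, from 6.33% to 13.7% in the narrowest and from 5.23% to 13.7% in the widest.

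The peaks that met lay on top of each other rather than side by side. The 4392 pairs had a median overlap of 508.5 bp (quartiles 219 and 1135 bp), and 73 pairs (1.66%) shared under 100 bp. In a median pair, 99.0% of the H3K4me3 peak and 62.9% of the H3K36me3 peak were covered by the other. The H3K4me3 peak lay wholly inside the H3K36me3 peak in 2061 pairs (46.9%), the reverse held in 717 (16.3%), and in 1615 (36.8%) each reached beyond the other (1 pair of equal extent is in both of the first classes). The centers of both peaks were a median of 224 bp apart, and within 200 bp in 2079 pairs (47.3%). Across pairs, scores of both marks were related with a Spearman's rho of 0.37. The partners of H3K4me3 peaks had a median H3K36me3 score of 124 in H3K4me3 score quartile 1 and 251 in quartile 4, so that the few high H3K4me3 peaks that met H3K36me3 met its higher peaks.

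Most H3K4me3 peaks were far from H3K36me3. Of those that did not meet it and had an H3K36me3 peak on the same sequence, 45865 in number, the median distance to the nearest one was 22354 bp (quartiles 5863 and 72024 bp). Only 1656 H3K4me3 peaks (3.28% of the list) lay within 1000 bp of an H3K36me3 peak without meeting it, fewer than the 4366 that met one. A further 8377 (16.6%) were more than 100000 bp away. From the H3K36me3 side, the 36152 peaks without H3K4me3 were nearer to it, at a median of 9936 bp (quartiles 3933 and 22079 bp).

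The H3K4me3 peaks with the highest scores were at once the closest to H3K36me3 and the least often in contact with it. The median distance of peaks without overlap was 52114 bp in score quartile 1, 41052 bp in quartile 2, 20474 bp in quartile 3 and 4506 bp in quartile 4. In quartile 4, 40.8% of all peaks lay between 1000 and 5000 bp from an H3K36me3 peak, against 5.35% in quartile 1. The distance was also shorter for wider peaks, from a median of 48030 bp in the narrowest quartile to 9322 bp in the widest.

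To place the peaks relative to genes, they were compared with RefSeq genes of the assembly used for alignment, which include 40693 protein-coding genes on the 32 chromosomes. A peak within 1 kb of either end of a protein-coding gene was called a boundary peak, since the table gives no strand and start and end cannot be told apart. Of the others, peaks that touched such a gene were called interior, those within 1 kb of another kind of gene were kept apart, and the rest were called outside. Boundary regions made up 6.59% of the chromosome length and held 45.5% of the H3K4me3 peaks, whereas gene interiors, 52.1% of the length, held 79.98% of the H3K36me3 peaks.

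H3K4me3 peaks that met H3K36me3 were placed differently from the rest of their list. Of the 4244 on chromosomes, 2591 (61.1%) were interior, 1044 (24.6%) outside and 516 (12.2%) at a boundary. Of the H3K4me3 peaks that met none, 48.6% were at a boundary, 20.9% interior and 27.5% outside. Read the other way, 21.6% of the 11994 interior H3K4me3 peaks met H3K36me3 (interval 20.9% to 22.3%), against 7.77% of the 13440 outside peaks (7.33% to 8.23%) and 2.30% of the 22401 boundary peaks (2.12% to 2.51%). The ranking of these 3 positions did not follow score, since the boundary peaks without H3K36me3 had the highest median score, 491, and interior peaks without it a median of 136.

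The share of boundary peaks moved with score. Boundary peaks made up 17.8% of H3K4me3 score quartile 1 and 85.0% of quartile 4, and 91.8% of the highest score decile. Within positions, the course differed. At boundaries the share stayed low, between 3.82% in score quartile 3 and 1.14% in quartile 4. Inside genes it went from 14.2% to 33.6% over quartiles 1 to 3 and was 19.2% in quartile 4. Outside genes it increased throughout, from 3.07% to 6.55%, 17.2% and 21.9%, with an interval of 18.4% to 25.7% for the 485 peaks of the highest quartile. The part of gene position in the low share of quartile 4 over the whole list was not tested.

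H3K36me3 peaks outside genes were rare and mostly met H3K4me3. They numbered 1919, or 4.83% of the list on chromosomes, and 1050 of them (54.7%, interval 52.5% to 56.9%) met an H3K4me3 peak, against 8.09% of the 31765 interior peaks and 9.48% of the 5539 boundary peaks. By score quartile, this share outside genes increased from 38.3% to 53.2%, 64.3% and 71.2%. Outside genes, the H3K36me3 peaks that met H3K4me3 had a median width of 902 bp, and those that did not one of 286 bp. The pairs outside genes were also the most tightly centered, with centers a median of 126.5 bp apart, against 245.5 bp for pairs inside genes and 515.5 bp for pairs at boundaries. Outside genes, peaks that met lay at a median of 15930 bp from the nearest gene boundary on the H3K4me3 side, close to the 14088 bp of H3K4me3 peaks alone. H3K36me3 peaks outside genes that met no H3K4me3 lay nearer to genes, at 7886 bp.

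**Figure D2:**
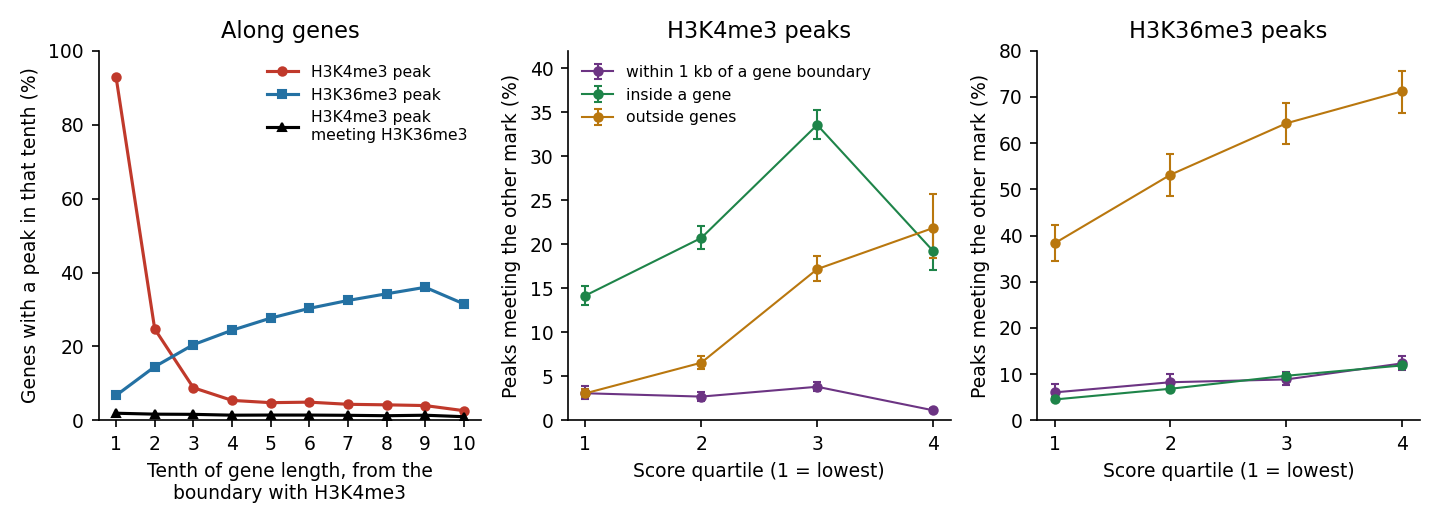
Left, 17725 protein-coding genes of at least 5000 bp with H3K4me3 at 1 boundary only, cut into 10 equal bins of their length from that boundary (x axis), with the percent of genes that have a peak in each bin (y axis). Center and right, share of H3K4me3 and H3K36me3 peaks that meet the other mark (y axes, percent, different scales) by score quartile (x axis) and gene position, with 95% Wilson intervals. The H3K4me3 line follows from the choice of genes, and the line of H3K4me3 peaks that meet H3K36me3 also depends on it. H3K36me3 is most frequent in bin 9 at 35.99%, and H3K36me3 peaks outside genes meet H3K4me3 in 38.3% to 71.2%.

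Within genes, H3K36me3 was most frequent toward the end away from boundary H3K4me3. In the 17725 genes of at least 5000 bp with H3K4me3 at a single boundary, that boundary served as the starting end and the gene was cut into 10 equal bins. H3K36me3 was found in bin 1 of 6.74% of these genes, and its share grew with each bin to 35.99% in bin 9, with 31.5% in bin 10. The genes were chosen and oriented by H3K4me3, so that its own values, 92.9% of genes in bin 1 and 2.61% in bin 10, follow from the choice and are no result. H3K4me3 peaks that met H3K36me3 were found in 1.92% of genes in bin 1 and in 0.982% to 1.67% in the others. These values also depend on the choice of genes. In bin 1, 341 genes had such a peak and 16464 had any H3K4me3 peak, whereas in bin 9 these numbers were 245 and 708.

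Distances also differed by gene position. Of the 21885 boundary H3K4me3 peaks that did not meet H3K36me3, 12949 (59.2%) belonged to a gene with H3K36me3 elsewhere inside it. In score quartile 4, 81.2% of these boundary peaks (interval 80.4% to 81.9%) belonged to a gene with H3K36me3, against 26.7% in quartile 1. Boundary H3K4me3 peaks without overlap were a median of 8734 bp from H3K36me3, interior ones 38439 bp and those outside genes 58167 bp. For H3K36me3 peaks, the distance to H3K4me3 was 4902.5 bp at boundaries, 11003 bp inside genes and 12430 bp outside.

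**Figure D3:**
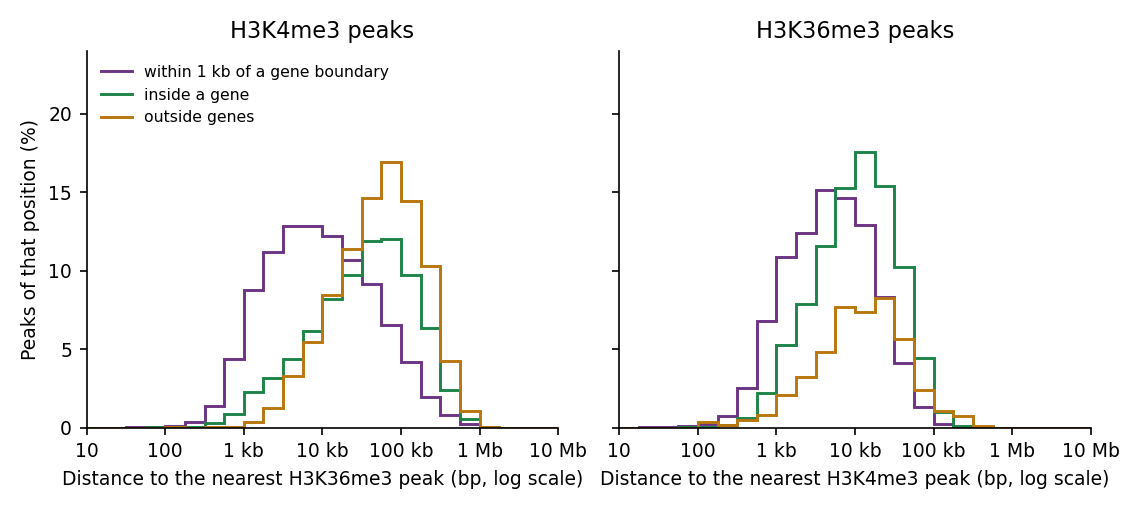
Distance from TAC-3 peaks that do not meet the other mark to the nearest peak of that mark (x axis, log scale), as the percent of all peaks of each gene position (y axis), for H3K4me3 peaks (left) and H3K36me3 peaks (right). The lines are boundary, interior and outside peaks. Boundary H3K4me3 peaks lie closest to H3K36me3, with a median of 8734 bp, and H3K4me3 peaks outside genes farthest, with a median of 58167 bp.

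Counted by gene, 24187 of the 40693 protein-coding genes (59.4%) had H3K4me3 at a boundary and 15200 (37.4%) had H3K36me3 inside, and 13206 (32.5%) had this combination. H3K36me3 was present in 54.6% of the genes with H3K4me3 at a boundary and in 12.1% of those without. A meeting of both marks was found in 2680 genes (6.59%), and in 15.7% of the 13206. A further 10981 genes (27.0%) had only H3K4me3 at a boundary and 1994 (4.90%) only H3K36me3 inside.

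Most matched genes of meiosis had H3K4me3 at a boundary together with H3K36me3 inside. So did most matched housekeeping genes, so that this combination is no check of the testis label. Of 47 symbols for meiotic prophase, 25 matched the gene table. All 25 had H3K4me3 at a boundary and 22 had H3K36me3 inside. Peaks that met were found in 1 of the 25, sycp1 (4%), against 6.59% of all protein-coding genes. The combination of boundary H3K4me3 and H3K36me3 inside was found in 12 of 21 matched germ cell and piRNA genes and 23 of 32 spermatid and cilium genes. It was also found in 9 of 12 housekeeping genes and 13 of 16 genes for enzymes and readers of H3K4 and H3K36 methylation. In contrast, it was found in 1 of 14 genes listed for testis somatic cells, dmrt1. Which cells carried the marks at dmrt1 cannot be told from testis tissue. The combination was found in 0 of 13 genes listed for other tissues such as muscle, blood and retina. The background over all protein-coding genes was 32.5%. It was 12.1% in the shortest quartile of genes (median 3113 bp) and 40.9% in the longest (median 62752 bp). Gene length differed between lists, with medians of 3312 bp for other tissues, 5069.5 bp for housekeeping and 9262.5 bp for somatic genes. Medians were 11993 bp for meiotic, 16248.5 bp for spermatid, 26645 bp for germ cell and 34861 bp for methylation genes, against 13039 bp for all. The part of gene length in these counts was not tested. Of the symbols, 21 of 30 for germ cells and piRNA, 32 of 44 for spermatids and cilia and 16 of 40 for methylation matched the gene table. For housekeeping, testis somatic cells and other tissues, 12 of 31, 14 of 28 and 13 of 40 matched. Meetings of both marks anywhere in the gene, which need no H3K4me3 at a boundary, were found in 1, 3, 5, 2, 2, 0 and 1 genes of these lists, in the order meiotic, germ cell, spermatid, housekeeping, methylation, somatic and other tissues. As shares of the matched genes these were 4%, 14.3%, 15.6%, 16.7%, 12.5%, 0% and 7.69%, against 6.59% of all genes. Over all genes, this share was 1.13% in the shortest length quartile and 17.2% in the longest. The part of gene length in the values of the lists was not tested here either. The neuronal gene elavl4, the only one of the other tissues with a meeting, and the germ cell genes tdrd12, tdrd9 and gfra1a had peaks that met and no H3K4me3 at a boundary.

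The genes of the recombination machinery illustrate the usual layout. At dmc1, on chromosome 20, H3K4me3 covered 21907743 to 21908710 (score 1733) at one boundary and the higher of 2 H3K36me3 peaks covered 21918614 to 21919153 (score 135.5) near the other. The gene for SPO11, the protein that makes DSBs, had H3K4me3 at 58174342 to 58175288 on chromosome 16 (score 447) and its higher H3K36me3 peak at 58182171 to 58183970 (score 176). The cohesin gene rec8b had an H3K36me3 peak of 12175 bp over 50.5% of its length and an H3K4me3 peak with a score of 683.5 at its boundary. In sycp3, which encodes a component of the chromosome axis, H3K36me3 covered 13.4% of the gene and H3K4me3 had a score of 1241. The msh4 gene, which acts in crossover formation, had 2 H3K4me3 peaks at its boundaries (highest score 1022) and H3K36me3 over 23.0% of its length. In hormad1, another gene of the axis, the values were a score of 813 and 13.5%.

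Germ cell genes varied. Of the 21 matched, 7 had no H3K4me3 at a boundary and 5 had no H3K36me3. Among those that had both, H3K36me3 covered 82.2% of piwil1, which encodes a piRNA-binding Argonaute protein, and ended at 24883357 on chromosome 6, before the H3K4me3 peak that began at 24883832 (score 1189). It covered 25.9% of the germ cell gene ddx4 and 25.03% of dazl, with H3K4me3 scores of 706 and 726. The sycp1 gene, the only meiotic gene with peaks that met, encodes the transverse filament of the synaptonemal complex. H3K36me3 covered 72.2% of it, and the H3K4me3 peak at its boundary had a score of 1156.5. This boundary peak began at 7608194 on chromosome 2, and the higher of 2 H3K36me3 peaks ended before it, at 7607323. The H3K4me3 peak that met H3K36me3 in sycp1 is not given here. The gene for the SETD2 methyltransferase itself had 2 H3K4me3 peaks at its boundaries (highest score 1882) and 6 H3K36me3 peaks over 37.3% of its length (highest score 1010), none of which met. The polr2a gene, for the large subunit of RNA polymerase II, had H3K36me3 over 73.7% of its length. By contrast, no H3K36me3 peak was found in cyp17a1, a gene for steroid synthesis in Leydig cells. The H3K4me3 peak counted at its boundary (score 2921) ran from 68405424 to 68406257, beyond the gene, which spans 68401582 to 68404726. The neuronal gene neurod1 had an H3K4me3 peak with a score of 187 and no H3K36me3. At gsdf, a Sertoli cell gene in fish, and at the gene named gapdh, there was no H3K4me3 at a boundary and no H3K36me3 inside.

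Single sites show the forms that a meeting could take. On chromosome Y, an H3K4me3 peak from 5879015 to 5881213 (score 6807) coincided with an H3K36me3 peak from 5879027 to 5881188 (score 737.5), 3746 bp from an snRNA gene, and this was the highest H3K4me3 score on a chromosome among peaks that met H3K36me3. The next one, from 35434113 to 35436196 on chromosome 32 (score 3802), lay at the boundary of LOC110489271 and shared 111 bp with the end of an H3K36me3 peak that ran from 35429496 to 35434223 (score 176.6). The first pair is coincident and the second is a contact at the edge, and both count as 1 meeting. The longest overlap was 7977 bp on chromosome 13, where an H3K4me3 peak from 59687294 to 59695270 (score 727) lay inside an H3K36me3 peak from 59687284 to 59696253 (score 888.2), within LOC110515614 and 35934 bp from its boundary. Of the H3K4me3 peaks that met none, the one with the highest score of all, 31583, was a peak of 332 bp from 7575521 to 7575852 on chromosome 7. It lay 5262 bp from an rRNA gene. Of the 5 highest H3K4me3 peaks in each class, 3 that met H3K36me3 and 2 that did not were on sequences not placed on a chromosome.

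The 2 highest H3K36me3 peaks without H3K4me3 were narrow and inside genes. The highest covered 232 bp of LOC118942868 on chromosome 21, from 9849547 to 9849778 (score 6896), and the next covered 151 bp of cdk20, a cyclin-dependent kinase gene, on chromosome 9 (score 4783) and lay 1762 bp from H3K4me3. The highest H3K36me3 peak on a chromosome that met H3K4me3 was in LOC110510636 on chromosome 6, from 96558618 to 96559095 (score 3169). The widest peaks of this mark lay over gene bodies. One of 42475 bp lay in LOC110532229 on chromosome 9, and one of 38444 bp in dync1h1, the gene for the heavy chain of cytoplasmic dynein, on chromosome 19. Another, of 36287 bp, lay in huwe1, a ubiquitin ligase gene, on chromosome 16. Of these, only the peak in dync1h1 met H3K4me3, a low peak (score 123) from 58219448 to 58220585. The widest H3K4me3 peaks were outside genes. The 2 widest, of 15908 bp on chromosome 11 and 14877 bp on chromosome 14, met no H3K36me3 peak, and that of 14093 bp on chromosome 16 met one over 1703 bp. The H3K4me3 peak farthest from H3K36me3 lay on chromosome 7, at 35190128 to 35190497 (score 187), with the nearest H3K36me3 peak 1349671 bp away.

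Among chromosomes, the share of H3K4me3 peaks that met H3K36me3 ranged from 6.88% on chromosome 9 (interval 5.79% to 8.15%) to 12.2% on chromosome 22 (10.3% to 14.3%). The next highest values were 11.9% on chromosome 24 and 11.2% on chromosome 21, and the next lowest 6.95% on chromosome 17 and 6.97% on chromosome 10. Chromosomes 9 and 22 differed by more than their intervals, whereas the intervals of neighbors in this order overlapped. These 2 were picked as the lowest and highest of 32, which favors such a gap, and the intervals make no allowance for this. H3K36me3 shares ran from 8.88% on chromosome 4 to 14.1% on chromosome 22. Across the 32 chromosomes, the shares of both lists were related (Pearson's r = 0.76, Spearman's rho = 0.63, and r = 0.61 without chromosomes 22 and 24). They share the pairs that meet, and no p-value is given. The H3K4me3 share was lower on chromosomes with more H3K4me3 peaks per Mb (r = -0.52, rho = -0.44). Both values use the number of H3K4me3 peaks, so that a negative relation can arise from this alone. The relation of the H3K4me3 share to chromosome length was weak (r = -0.31, rho = -0.23).

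Along chromosomes, each cut into 10 bins of equal length, H3K4me3 peaks met H3K36me3 least often in the middle. The share was 9.16% in bin 1, 6.97% in bin 5 (interval 6.31% to 7.69%), 10.6% in bin 9 (9.70% to 11.6%) and 10.0% in bin 10. H3K4me3 peaks themselves were sparser toward the ends, with 19.6 per Mb in bin 1 and 17.4 in bin 10 against 24.9 in bin 6. For H3K36me3, the share was 12.6% in bin 1, 9.17% in bin 5, 12.8% in bin 9 and 10.6% in bin 10. Both outer bins together gave 9.57% (8.95% to 10.2%) for H3K4me3, against 8.42% (8.16% to 8.69%) for the inner bins, and the outer value was higher on 23 of 32 chromosomes. For H3K36me3 the values were 11.5% and 10.5%, higher on 19 of 32. For H3K4me3, gene position moved with this difference, since boundary peaks were 37.4% of its list in the outer bins and 47.1% in the inner ones. Within positions, the outer and inner H3K4me3 shares were 2.59% and 2.26% at boundaries, 22.1% and 21.5% inside genes, and 7.15% and 7.92% outside genes, with overlapping intervals at each position. For H3K36me3, interior peaks were 82.5% of the list in the outer bins and 79.5% in the inner ones. Its outer and inner shares were 9.88% and 9.41% at boundaries, 8.90% and 7.92% inside genes, and 55.2% and 54.6% outside genes. The outer H3K36me3 share was thus the higher at each position, with overlapping intervals.

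**Figure D4:**
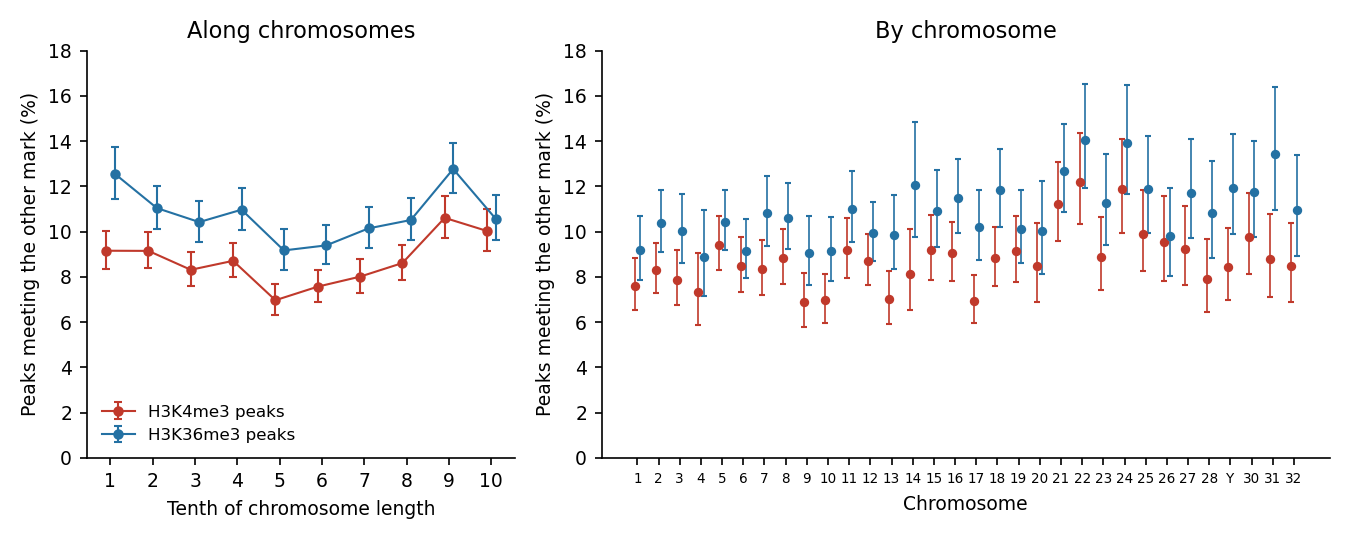
Share of TAC-3 peaks that meet the other mark (y axes, percent, with 95% Wilson intervals) by bin of chromosome length (10 equal bins) over all 32 chromosomes (left) and by chromosome (right), for H3K4me3 (red) and H3K36me3 (blue). Bin 5 has the lowest share for both lists, 6.97% and 9.17%, and chromosome 22 the highest, 12.2% and 14.1%.

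Both marks met far less often in TAC-3 than in TAC-1, whose lists were longer. In TAC-1, 102057 of 153665 H3K4me3 peaks met H3K36me3 (66.4%), and 101112 of 162044 H3K36me3 peaks met H3K4me3 (62.4%). With the TAC-1 lists reduced to their highest scores at the lengths of the TAC-3 lists, an alternative chosen after the data were seen, these shares were 40.5% and 50.4%, against 8.64% and 10.8% in TAC-3. Peak widths, list lengths, the number of input samples and individual differ between these values along with genotype, and their parts were not tested. The TAC-1 shares were 6.37 and 6.36 times the shares of positions in reach with whole lists, and 10.1 times in both directions with reduced ones. Both TAC-1 lists were also alike, with median widths of 367 and 368 bp and median scores of 250 and 253. In TAC-3 these medians were 757 and 976 bp, and 192 and 136. Whether this likeness bears on the TAC-1 values here and below was not tested.

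TAC-3 peaks where both marks met less often had a TAC-1 peak of their own mark. An H3K4me3 peak of TAC-1 was present at 76.4% of the TAC-3 H3K4me3 peaks alone, those that met no H3K36me3 (interval 76.0% to 76.8%) and at 31.0% of those that met H3K36me3 (29.6% to 32.4%). This held at each position, with 81.4% and 42.2% at boundaries, 69.5% and 30.0% inside genes, and 74.8% and 25.7% outside genes. In score quartile 4, the values were 96.9% and 43.4%. A TAC-1 H3K36me3 peak, in contrast, was present at 26.0% of the H3K4me3 peaks alone and at 38.7% of those that met H3K36me3. These values were 7.02% and 41.7% at boundaries, 38.1% and 43.5% inside genes and, in the opposite order, 50.96% and 24.5% outside genes. Both TAC-1 marks were present at 25.3% and 26.6%. Among H3K36me3 peaks, an H3K36me3 peak of TAC-1 was present at 76.9% of the TAC-3 H3K36me3 peaks alone and at 46.9% of those that met H3K4me3. No TAC-1 peak of either mark was present at 56.9% of the H3K4me3 peaks that met H3K36me3, 70.6% of those outside genes, and 22.8% of the H3K4me3 peaks alone.

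DSB hotspots, taken as their central 400 bp, were more frequent at H3K4me3 peaks of TAC-3 that met H3K36me3. RT-52, which shares allele 2 with TAC-3, had a hotspot at 292 of these 4366 peaks (6.69%, interval 5.98% to 7.47%) and at 148 of the 46182 H3K4me3 peaks alone (0.320%, 0.273% to 0.376%). The hotspots of TAC-3 itself, 209 in number, were found at 39 (0.893%) and 14 (0.0303%) of these peaks. Those of TAC-1, which shares no Prdm9 allele with TAC-3, were found at 2 (0.0458%, interval 0.0126% to 0.167%) and 11 (0.0238%, 0.0133% to 0.043%). These are too few to compare. For RT-52 the difference was present at boundaries (7.75% and 0.178%), inside genes (6.37% and 0.627%) and outside genes (7.18% and 0.331%). It was also present in each score quartile, from 1.74% and 0.178% in quartile 1 to 10.6% and 0.123% in quartile 4. H3K36me3 peaks had the same order, with RT-52 hotspots at 6.21% of those that met H3K4me3 and at 0.163% of those that did not. Of the 53 TAC-3 hotspots with an H3K4me3 peak of TAC-3, 38 also had an H3K36me3 peak (71.7%). Of the 441 RT-52 hotspots with one, 267 had both (60.5%). The paper used RT-52 hotspots with both marks in TAC-3 as its allele 2 set and reports a somewhat smaller number. The reason for this difference was not examined. In the H3K4me3 list as a whole, 8.64% of peaks met H3K36me3. The measures differ, since the hotspot values count central 400 bp that touch a peak of each mark, and the last value counts H3K4me3 peaks over their full length. Most hotspots had no TAC-3 peak of either mark, 153 of the 209 of TAC-3 and 1418 of the 1924 of RT-52. RT-52 also carries Prdm9 allele 1, which TAC-3 lacks, and its hotspots were not split by allele for this count. For hotspots called in TAC-1 as well as TAC-3, the paper raises the possibility of artifacts, since their strand pattern was atypical. Such hotspots were not removed from the 209. The counts thus do not give the share of true hotspots that lacked the marks of their own allele. Most peaks where both marks met, in any case, had no hotspot of these lists.

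**Figure D5:**
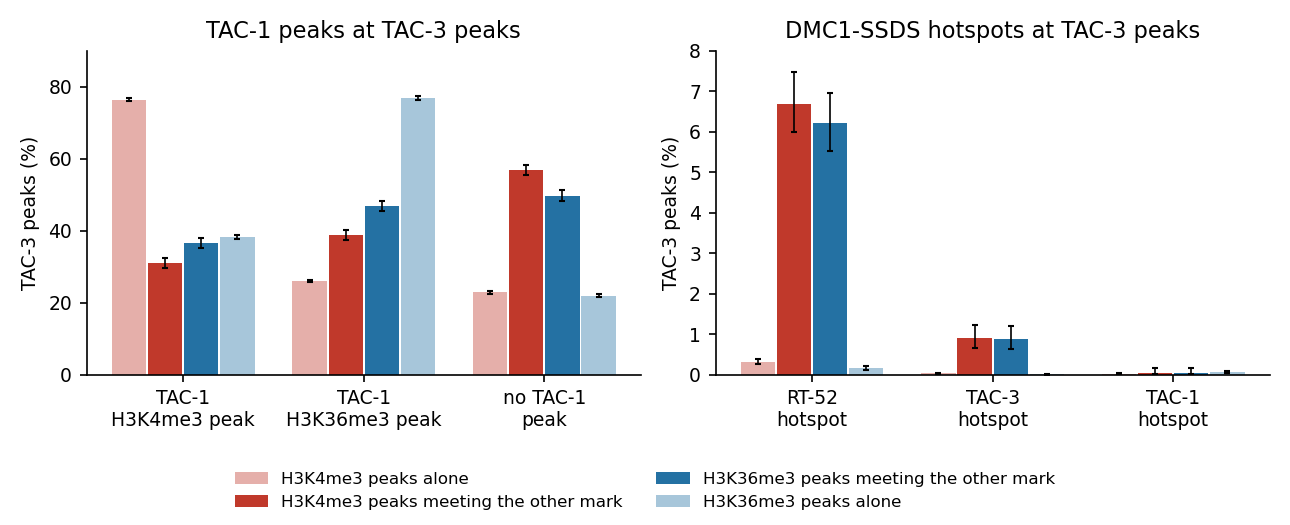
Percent of TAC-3 peaks (y axes, different scales, bars from 0 with 95% Wilson intervals) with a TAC-1 peak (left) or the central 400 bp of a DMC1-SSDS hotspot (right), for H3K4me3 (red) and H3K36me3 (blue) peaks alone (pale) or meeting the other mark (dark). A TAC-1 H3K4me3 peak is present at 76.4% of H3K4me3 peaks alone and 31.0% of those meeting H3K36me3, whereas RT-52 hotspots are at 0.320% and 6.69%.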

How the data were processed

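Per the labels and the methods, the authors aligned ChIP-seq reads to the USDA_OmykA_1.1 assembly with BWA 0.7.17-r1188, removed duplicates and reads without a unique position, and called narrow peaks with MACS2 2.2.7.1 in each of 2 replicates against an input. They merged peaks within 1 kb, averaged their scores, and kept regions found in both replicates by 25% reciprocal overlap. In the deposited lists, no peaks were closer than 1001 bp. The deposited value of each peak is this score. Broad domains of H3K36me3 were thus called as narrow peaks.

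Overlaps, gaps between nearest ends and shares were computed in Python 3.11.15 (SciPy 1.17.1, pandas 2.3.3, numpy 2.4.6), with 95% Wilson intervals. Figures were drawn with matplotlib 3.10.9. The overlap calls were checked on simulated data, where 1335 of 1335 peaks gave the values of bedtools. Quartiles are equal parts by rank. Chromosome length was the largest end of any peak in the 7 lists, 2232 Mb in all. Of the peaks, 1275 (H3K4me3) and 818 (H3K36me3) lay on unplaced sequences and were left out of analyses by chromosome or gene. Chromosome names were matched to the sequences by the share of H3K4me3 peaks near gene boundaries (at least 41.4% on the matched chromosome, at most 18.8% on another). The gene table holds 72772 genes, 18679 with no chromosome.

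The members, gene lists and divisions were chosen with earlier results of these data known. The sites named are the 5 highest scores in each class, the 3 widest peaks, the longest overlap and the farthest peaks, of which the text gives part, and genes of a list chosen for testis. Alternatives concerned the overlap required, the peaks used, distance, quartiles, chromosome length and the reach around genes. No genome sequence was used here.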

Additional observations from a re-analysis of the deposited data

How the results depend on the processing

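No paired analysis was possible because the lists hold 1 set of peaks per mark, made from both replicates, and for the same reason no replicate could be left out. Of the H3K4me3 peaks, the share that met H3K36me3 was 6.39% with a reciprocal overlap of 25%, 7.15% with at least 50% of the peak covered, 11.9% with gaps of up to 1 kb, 9.07% in the upper part of the H3K4me3 list (scores from the median), 5.42% against the upper part of the H3K36me3 list, 6.82% with both, 9.15% with lists of equal length and 7.96% with the central 400 bp. Of the H3K36me3 peaks, the share that met H3K4me3 was, under the same alternatives, 7.97%, 6.55%, 14.9%, 13.4% in the upper part of its own list, 5.69% against the upper part of the H3K4me3 list, 8.48% with both, 9.16% and 8.73%. The central 400 bp are wider than a narrow peak. On chromosomes only, they were 8.61% and 10.7%. Median distances changed from 22354 to 23578 bp between centers and to 44876 bp against the upper part of the H3K36me3 list, and from 9936 to 11486 and 13180 bp in the other direction.

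The difference between width quartiles 4 and 1 of the H3K36me3 list, 3.83 percentage points, became -0.18 when quartiles were taken within score quartiles, so that no direction by width is claimed for this list, and that of H3K4me3 went from 2.60 to 3.82. The difference between score quartiles 4 and 1 of H3K36me3 went from 7.64 to 6.20 within width quartiles, and that of H3K4me3 from -3.05 to -2.78. The shares in outer bins changed little with the chromosome length or peak position used. With reaches of 500 bp and 2 kb around genes, the share met by H3K36me3 was 1.93% and 2.89% at boundaries and 20.1% and 22.4% inside genes for H3K4me3 peaks, and 52.7% and 57.6% of H3K36me3 peaks outside genes met H3K4me3. The share of the H3K36me3 list at boundaries depended on this reach, with 7.96% and 23.9% against 13.9%. Genes of every kind in place of protein-coding genes, tried after the data were seen, gave 2.42% at boundaries and 21.3% inside genes. Depth per peak is unknown, and a site without a peak may still carry the mark.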

Other observations

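Gene length moved with the presence of H3K36me3 in TAC-3. In the shortest quartile of protein-coding genes (median 3113 bp), 49.8% had H3K4me3 at a boundary and 13.8% had H3K36me3 inside, whereas in the longest (median 62752 bp) these shares were 62.1% and 51.2%. Among genes with H3K4me3 at a boundary, H3K36me3 was present in 24.3%, 56.0%, 66.0% and 65.8% from the shortest to the longest quartile. Genes with a meeting of both marks made up 1.13% of the shortest and 17.2% of the longest quartile. Longer genes offer more positions for a peak, and the part of length in these shares was not tested.

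In TAC-1, where the lists are longer, the share of H3K4me3 peaks that met H3K36me3 was 55.9%, 69.8%, 75.9% and 64.1% from the lowest to the highest score quartile, and for H3K36me3 it was 39.7%, 56.6%, 70.3% and 83.1%. As in TAC-3, the H3K4me3 share was lower in quartile 4 than in quartile 3, and the H3K36me3 share increased throughout. The difference between the fish in these steps was not tested.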
